A study of Rattus norvegicus with 9 samples.

Results

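Histidine tRNA 5′ fragments are short RNAs cut from the first part of the tRNA that carries histidine to ribosomes. They were followed in small RNA libraries of CA1, a field of the hippocampus, from male Wistar rats aged 7 to 8 weeks. There were 3 libraries labelled HPC0h, an abbreviation the labels do not expand and whose hour is 0, 3 labelled tGCI26h, after transient global cerebral ischemia with the hour 26, and 3 labelled Sham. The labels do not say whether the HPC0h rats also had ischemia, or whether a library is 1 animal or a pool. No other treatment, transgene or allele is named.

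The members are the entries of the deposited table that share an exact run of at least 16 bases, on the same strand, with the first 36 bases of mature cytosolic tRNA-His-GUG, with or without the G added before its first base. They were chosen by sequence alone, but the family itself was picked with results of these data known. Of 5794 entries, 57 qualified, none of them under a catalogued piRNA name (rno_piR). A value above 0 in some library was found for 36 of them, and 21 were at 0 or blank in all 9 libraries. No member had a longest run of exactly 16 bases and 5 had a run of 17 to 19. The nearest entry outside, rno_piR_001415, had a run of 15 and held 3, 2 and 3 tags in HPC0h, 2, 3 and 0 in tGCI26h and 2, 2 and 31 in Sham.

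As background, tRNAs can be cleaved in or near the anticodon loop, for which the ribonuclease angiogenin is known in stressed mammalian cells, and the longer 5′ and 3′ pieces can persist as small RNAs. Histidine tRNA differs from other cytosolic tRNAs in that a guanylyltransferase adds a G in front of its first encoded base, a mark read by histidyl-tRNA synthetase. The RefSeq annotation of the rat (GRCr8) lists 10 genes named Trnah-gug, each of 72 bases, of which 5 are on chromosome 2, 3 on chromosome 3, 1 on chromosome 5 and 1 on chromosome 19. No build is stated for the files, so no genomic position is given and no entry was assigned to a gene copy.

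Positions are counted from 1 at the first base after the added one. The tRNA stretch was rebuilt by joining novel_3850_x1319 and novel_13761_x224, which overlap, and its anticodon lies at positions 34 to 36. The sequences shown are those that the results turn on, with the added base and every base from position 30 onward in capitals. They form a ladder of 3 first bases and 3 last bases, plus 1 internal piece.
novel_3850_x1319: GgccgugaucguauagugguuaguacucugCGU
novel_3084_x1815: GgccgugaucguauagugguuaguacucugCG
novel_2501_x2439: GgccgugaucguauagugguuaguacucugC
novel_12569_x253: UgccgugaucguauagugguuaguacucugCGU
novel_11278_x294: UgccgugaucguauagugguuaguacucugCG
novel_12902_x244: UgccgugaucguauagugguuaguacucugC
novel_1995_x3454: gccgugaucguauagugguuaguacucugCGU
novel_6113_x686: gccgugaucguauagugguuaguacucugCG
novel_1279_x6839: gccgugaucguauagugguuaguacucugC
novel_13761_x224: ugguuaguacucugCGUUGUGG

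Values are the authors' normalised and rounded tag counts, which sum to 961372 to 992081 in a library, so the sequencing depth is unknown. Columns carry a group but no replicate number. Headings with numbers mark 7 libraries, called HPC0h a, b and c, tGCI26h a and b and Sham a and b here, and 2 headings without numbers mark tGCI26h u and Sham u. Each numbered heading joins several numbers, as a pool of animals might, but the labels do not say what they count. The 2 unnumbered libraries stand apart: they list 708 and 1201 entries above 0, against 2558 to 2936 in the numbered ones, and results are therefore given with and without them. Brain microRNAs were abundant in every library, with 48178 to 108725 tags for miR-128-3p and 10423 to 91750 for miR-9a-5p, while the liver microRNA miR-122-5p held at most 1 tag. The red cell microRNA miR-451-5p held 1626 tags in tGCI26h u and 864 in Sham u, against 46 to 72 in the numbered libraries, and miR-144-3p, of the same cells, matched no entry. Of the white cell microRNAs, miR-223-3p held at most 1 tag and miR-142-3p matched no entry. The muscle microRNAs miR-1-3p, miR-206-3p and miR-133a-3p held at most 6 tags each.

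Histidine tRNA fragments were more abundant in the libraries of both treated groups than in the Sham libraries. Summed over the members, HPC0h a, b and c held 1773, 1757 and 1635 tags, tGCI26h a, b and u held 935, 2143 and 1672, and Sham a, b and u held 733, 476 and 61. The 3 HPC0h libraries lay close together and the tGCI26h libraries spread widely around them, and neither group overlapped with Sham. The means were 1722 ± 75.5 tags in HPC0h, 1583 ± 609 in tGCI26h and 423 ± 339 in Sham (SD, n = 3 each). Without tGCI26h u and Sham u the tGCI26h mean was 1539 and the Sham mean 604.5. Of each library's total the members made up 0.174% ± 0.00762 in HPC0h, 0.160% ± 0.0616 in tGCI26h and 0.0428% ± 0.0341 in Sham (SD, n = 3 each). In the numbered libraries alone, every HPC0h and tGCI26h sum was above both Sham sums. The part of the red cell signal in these sums was not tested. No test was made on the sum, because the family was picked with results known. In bulk tissue, fewer cells of a type and less RNA per cell cannot be told apart.

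**Figure D1:**
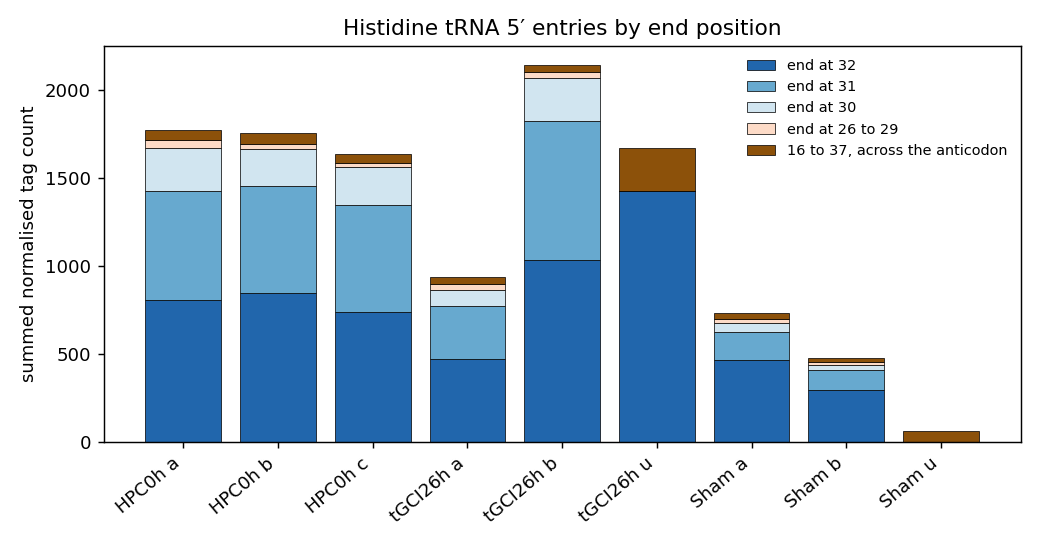
Stacked bars give the summed normalised tag count (y axis, starting at 0) of the histidine tRNA entries in each of the 9 libraries (x axis), split by the position of the last base. The 3 HPC0h bars reach 1635 to 1773 tags, the tGCI26h bars 935 to 2143 and the Sham bars 61 to 733, and tGCI26h u and Sham u hold no entry that ends at 30 or 31.

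How the authors counted a read that matches several nested entries is not stated, so a sum can hold 1 read more than once. In every library no member held more tags than a longer member that contains its whole sequence. An entry may thus hold reads of the pieces inside it, which was not tested. Nested members often carried the same value: 5 pairs of members had equal values in all 9 libraries. In tGCI26h u, 6 entries that all end at position 32 and start at different bases held exactly 97 tags each. Members are thus not independent of each other. Counts of members, and sums or shares by first or last base, are descriptions that need not refer to separate pieces.

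In the numbered libraries, entries that end just before the anticodon held almost all of the summed tags. Of 57 members, 21 end at position 30, 31 or 32, and these held 94.1%, 94.65% and 95.7% of the family's tags in HPC0h a, b and c, 92.1% and 96.4% in tGCI26h a and b and 92.2% and 91.0% in Sham a and b. Position 32 lies 2 bases before the first base of the anticodon. The entries that end at positions 26 to 29 held few tags. Where a shorter member lies inside a longer one it never held more tags, so shares by end position need not show where single RNAs end. The 12 members that end at positions 18 to 25 were at 0 or blank in every library. In tGCI26h u 85.2% of the family ended at position 32 and the rest was novel_13761_x224, which was the only member above 0 in Sham u.

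Of the 2 longest members, which have 33 bases, novel_3850_x1319 starts with the added G and was the most abundant member. It is described first. novel_3850_x1319 held 339, 406 and 312 tags in HPC0h a, b and c, 207, 471 and 842 in tGCI26h a, b and u and 226 and 142 in Sham a and b, and it was blank in Sham u. HPC0h and Sham did not overlap, while tGCI26h a fell below Sham a. The piece 1 base shorter, novel_3084_x1815, held 226, 240 and 233 tags in HPC0h a, b and c, 104 and 323 in tGCI26h a and b and 52 and 34 in Sham a and b, and it was blank in tGCI26h u and Sham u. Every numbered HPC0h and tGCI26h library exceeded both numbered Sham libraries. The piece that ends at position 30, novel_2501_x2439, held 81, 74 and 75 tags in HPC0h a, b and c, 28 and 91 in tGCI26h a and b and 14 and 7 in Sham a and b, with blanks in both unnumbered libraries. Here too every numbered HPC0h and tGCI26h library exceeded both numbered Sham libraries.

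An entry with U in the place of the added G was listed beside each of these. The U form that ends at 32, novel_12569_x253, held 196, 205 and 191 tags in HPC0h a, b and c, 112, 263 and 97 in tGCI26h a, b and u and 107 and 67 in Sham a and b. The U form that ends at 31, novel_11278_x294, held 165, 167 and 169 tags in HPC0h a, b and c, 79 and 215 in tGCI26h a and b and 43 and 31 in Sham a and b. At end 32 the U form held 57.8%, 50.5% and 61.2% of the value of the G form in HPC0h a, b and c, 54.1% and 55.8% in tGCI26h a and b and 47.3% and 47.2% in Sham a and b. The entries that begin at position 1, without an added base, ran parallel: novel_1995_x3454 held 177, 177 and 178 tags in HPC0h a, b and c, 96, 233 and 97 in tGCI26h a, b and u and 87 and 55 in Sham a and b. This entry lies inside both the G and the U form that end at 32, and in tGCI26h u it equalled the U form. The percentages above thus need not compare separate pieces.

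Over the family, entries with the added G held 37.1% to 41.5% of the tags in the HPC0h libraries, 37.3% and 41.8% in tGCI26h a and b and 40.2% and 38.9% in Sham a and b. Entries with U there held 25.3% to 26.2% in HPC0h, 24.3% and 26.3% in tGCI26h a and b and 23.9% and 24.6% in Sham a and b. Entries with A there were listed 3 times and held at most 9 tags together in any library. The shares of the G entries overlapped between the numbered libraries of the 3 groups, while those of the U entries were slightly higher in every HPC0h library than in Sham a and b and overlapped between tGCI26h and Sham. In tGCI26h u the G entries held 50.4% and the U entries 5.80%. All these shares are of summed nested entries, which may count a read repeatedly.

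The shares by last base of the entry differed between the numbered libraries of the groups. Ends at 30 and 31 together made up 48.7%, 46.5% and 50.7% of the family in HPC0h a, b and c and 41.6% and 48.2% in tGCI26h a and b, against 29.2% and 29.4% in Sham a and b. Ends at 32 made up 45.5%, 48.1% and 45.0% in HPC0h a, b and c and 50.5% and 48.2% in tGCI26h a and b, against 63.0% and 61.6% in Sham a and b. Neither share overlapped between the numbered treated and Sham libraries. The 2 unnumbered libraries held no end at 30 or 31.

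Among entries with the added G, the piece that ends at 31 reached 66.7%, 59.1% and 74.7% of the piece that ends at 32 in HPC0h a, b and c and 50.2% and 68.6% in tGCI26h a and b, against 23.0% and 23.9% in Sham a and b. For the U forms this ratio was 84.2%, 81.5% and 88.5% in HPC0h a, b and c and 70.5% and 81.7% in tGCI26h a and b, against 40.2% and 46.3% in Sham a and b. Entries that begin at position 1 gave 85.9%, 84.7% and 90.4% in HPC0h a, b and c and 71.9% and 84.1% in tGCI26h a and b, against 39.1% and 45.5% in Sham a and b. Pieces that lack the first base lay closer together: entries from position 2 gave 80.0% to 88.9% in HPC0h and 81.4% and 85.4% in tGCI26h, against 75.0% in both Sham libraries, and entries from position 3 gave 80.0% to 90.9% in HPC0h and 90.0% and 90.9% in tGCI26h, against 83.3% and 80.0% in Sham a and b. These last ratios rest on low values, such as 6 and 5 tags in Sham a and b for novel_1238_x7280. The ratios were not tested and describe 7 libraries. Each entry that ends at 31 lies inside its partner that ends at 32 and never held more tags, so the ratios need not compare separate pieces.

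**Figure D2:**
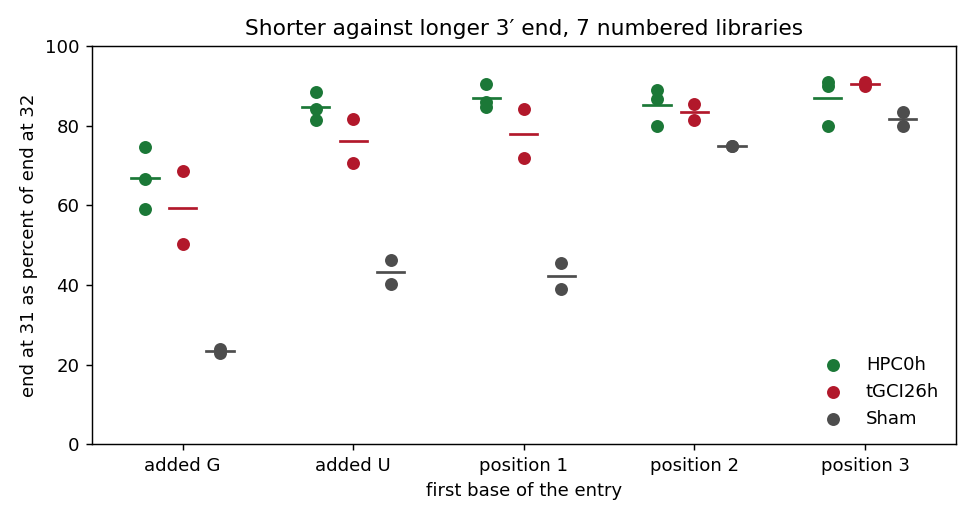
Points give, for each of the 7 numbered libraries, the value of the entry that ends at position 31 as a percentage of the entry with the same first base that ends at 32 (y axis, from 0), for 5 first bases (x axis); short lines are group means. Sham points lie between 23.0% and 46.3% for the added G, the added U and position 1, below all HPC0h and tGCI26h points, and between 75.0% and 83.3% for positions 2 and 3.

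The shorter pieces from position 1 followed the same order. novel_6113_x686, which ends at 31, held 152, 150 and 161 tags in HPC0h a, b and c, 69 and 196 in tGCI26h a and b and 34 and 25 in Sham a and b. novel_1279_x6839, which ends at 30, held 64, 55 and 60 tags in HPC0h a, b and c, 21 and 64 in tGCI26h a and b and 11 and 6 in Sham a and b. Both were blank in the unnumbered libraries, and in the numbered ones both treated groups lay above Sham.

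Pieces that lack the first base of the tRNA were fewer. novel_551_x24104, from position 2 to 32, held 65, 38 and 36 tags in HPC0h a, b and c, 43, 48 and 97 in tGCI26h a, b and u and 32 and 24 in Sham a and b. novel_2026_x3377, from position 2 to 31, held 52, 33 and 32 tags in HPC0h a, b and c, 35 and 41 in tGCI26h a and b and 24 and 18 in Sham a and b. HPC0h and tGCI26h overlapped with each other in both, and neither overlapped with Sham in the numbered libraries.

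The internal piece novel_13761_x224 runs from position 16 to 37 and crosses the anticodon, so it is not a 5′ piece cut at the anticodon. It held 57, 63 and 52 tags in HPC0h a, b and c, 40, 40 and 248 in tGCI26h a, b and u and 33, 22 and 61 in Sham a, b and u. In the numbered libraries the 3 groups did not overlap, but Sham u lay between HPC0h a and HPC0h b. Shorter pieces that begin further inside the tRNA were rare: the 18-base novel_11915_x273 held 2 tags in every HPC0h library, against 1 in tGCI26h a and b and 1 in Sham a, and was at 0 or blank in the others.

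HPC0h against Sham was compared entry by entry with limma on log2(value + 1). The fit held the 2824 entries whose mean reached 1 tag, of which 31 were members. No member passed at an adjusted p below 0.05, and neither did any other entry (0% called); 21 entries had an unadjusted p below 0.05. All 31 members tested stood higher in HPC0h, against 61.3% of all entries tested, and their median log2 difference was 1.79, against 0.53 over all entries. At an unadjusted p below 0.05, 3 members were higher, against 0.708% of all entries that were called and higher. These were novel_1279_x6839 (log2 difference 3.79 ± 1.58 SE, adjusted p = 0.822), novel_2501_x2439 (3.98 ± 1.68, 0.822) and novel_12902_x244 (3.60 ± 1.64, 0.822), all of which end at position 30. With 1 library left out, the count of 3 fell to 0 if that was Sham u or any of the HPC0h libraries, and reached 5 for tGCI26h b, 9 for Sham a and 16 for tGCI26h u. In the fits without tGCI26h b, Sham a or tGCI26h u, 0.780%, 1.65% and 5.70% of all entries were below 0.05 in either direction. In 23 of the 31 members every HPC0h value exceeded every Sham value, as was so for 13.0% of all entries. Sham u was blank, read as 0, for 56 of the 57 members, so for these the count rests on Sham a and b. The members are also nested, so the count need not refer to separate pieces.

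In the 7 numbered libraries 36 of 2608 entries were called in HPC0h against Sham (1.38%), and none of the 32 members tested was among them. Their smallest adjusted p in limma was 0.128, for novel_13761_x224 (log2 difference 1.06 ± 0.19 SE). At an unadjusted p below 0.05, 21 members were higher and none lower, against 11.5% of all entries called and higher. Among the entries with the added G the difference was 2.82 ± 0.56 for novel_2501_x2439 (end 30, adjusted p = 0.144), 2.44 ± 0.51 for novel_3084_x1815 (end 31, 0.155) and 0.96 ± 0.42 for novel_3850_x1319 (end 32, 0.430). Still shorter entries with the added G gave 1.34 for novel_806_x13899 (end 29) and 0.06 for novel_4183_x1164 (end 28, -0.06 with median-of-ratios scaling). Both held at most 7 tags in any library, where log2 differences understate changes. Entries from position 2 gave 0.98, 0.84 and 0.67 for novel_2488_x2468 (end 30), novel_2026_x3377 (end 31) and novel_551_x24104 (end 32). Of the 32 members 30 stood higher and 2 lower, with a median of 1.10, against 0.21 over all entries.

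tGCI26h against Sham asks how CA1 differs at the labelled hour 26 after ischemia. In the 9 libraries no member and no other entry passed in limma (0% called), 39 entries had an unadjusted p below 0.05, and the members' smallest adjusted p was 0.781. Of the 31 members tested 30 stood higher in tGCI26h and 1 was level, against 55.0% of all entries that stood higher, and the median log2 difference was 0.67, against 0.14 over all entries. The 3 members higher at an unadjusted p below 0.05, against 1.10% of all entries, were novel_13122_x239 (2.98 ± 1.24 SE), novel_3146_x1767 (2.87 ± 1.25) and novel_1238_x7280 (2.76 ± 1.24). All 3 end at position 32 and held 97 tags in tGCI26h u, beside 2 to 11 in tGCI26h a and b and at most 6 in any Sham library, and in the numbered libraries their unadjusted p in limma was 0.100, 0.119 and 0.0648. Leaving out Sham u or any of the HPC0h libraries brought the count of 3 to 0, leaving out Sham b to 1, Sham a to 5 and tGCI26h u to 7. In the fits without Sham b, Sham a or tGCI26h u, 1.74%, 1.79% and 3.7% of all entries were below 0.05 in either direction. In 3 of the 31 members, novel_1238_x7280, novel_1995_x3454 and novel_551_x24104, every tGCI26h value exceeded every Sham value, as was so for 2.27% of all entries.

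In the numbered libraries 22 of 2608 entries were called in tGCI26h against Sham (0.844%), again with no member among them. The members' smallest adjusted p in limma was 0.217, for novel_806_x13899 (added G, end 29), which held 5 and 6 tags in tGCI26h and 2 and 1 in Sham. At an unadjusted p below 0.05, 11 members were higher and none lower, against 10% of all entries. The G forms differed by 2.24 ± 0.61 (end 30, adjusted p = 0.295), 2.10 ± 0.56 (end 31, 0.285) and 0.80 ± 0.46 (end 32, 0.533) for novel_2501_x2439, novel_3084_x1815 and novel_3850_x1319. When tGCI26h u alone was left out, the members' median was 1.43, against 0.57 over all entries; when tGCI26h b was, it was 0.14, against -0.30, with 19 members higher and 12 lower. The sign of 6 named members that end at 30 or 31, novel_3084_x1815 among them, turned negative when tGCI26h b or Sham u was left out, as low as -0.93 for novel_2026_x3377.

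HPC0h against tGCI26h sets the labelled conditions side by side. No member passed in limma over the 9 libraries (0% of all entries called, and 0% called and higher at an unadjusted p below 0.05, with 8 entries lower). The smallest unadjusted p of a member was 0.151. In 5 of the 31 members tested every HPC0h value exceeded every tGCI26h value, against 5.10% of all entries. All 5 lay near the floor, with at most 6 tags in any HPC0h library and at most 3 in any tGCI26h library. Among them are pairs with equal values in all 9 libraries. novel_3850_x1319 gave -0.31 ± 1.82 (SE), and when tGCI26h u was left out it gave 0.17. novel_13761_x224, novel_13122_x239, novel_3146_x1767 and novel_1238_x7280 likewise stood lower in HPC0h over 9 libraries, by -0.36, -1.01, -1.08 and -0.74, and higher when tGCI26h u was left out, by 0.50, 0.54, 0.53 and 0.29. In the numbered libraries 12 of 2608 entries were called (0.460%), none of them a member, and 1 member was higher at an unadjusted p below 0.05, novel_13761_x224 (0.50 ± 0.19, adjusted p = 0.706), against 5.29% of all entries. The median over the 32 members was 0.27, against 0 over all entries. The 3 comparisons share libraries, so they are not independent of each other.

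**Figure D3:**
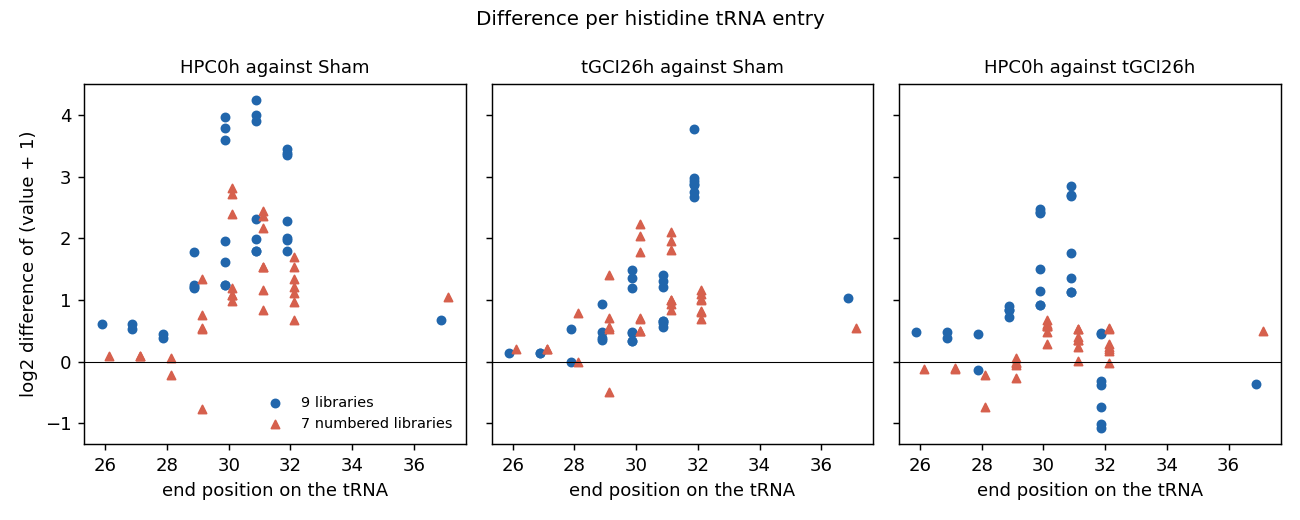
Each point is 1 histidine tRNA entry, with the position of its last base on the x axis and its log2 difference of (value + 1) on the y axis, in HPC0h against Sham, tGCI26h against Sham and HPC0h against tGCI26h; circles are the fit of 9 libraries and triangles that of the 7 numbered ones. Against Sham the triangles are highest at ends 30 and 31, up to 2.82 in HPC0h and 2.24 in tGCI26h, and in HPC0h against tGCI26h they lie between -0.74 and 0.68.

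Set beside 3 other tRNA families, found by a shared run of 16 bases with an abundant entry of each, the histidine sums lay below those of glycine in every library. Sets found this way need not hold every entry of their tRNA family. The 41 glycine tRNA entries held 9484, 15008 and 10215 tags in HPC0h, 16987, 16715 and 30797 in tGCI26h and 12152, 10734 and 31269 in Sham, so that HPC0h overlapped with Sham. The 38 glutamate tRNA entries held 2406, 2149 and 1421 tags in HPC0h, 3855, 2625 and 436 in tGCI26h and 2759, 2106 and 194 in Sham, and the groups overlapped. The 37 glutamine tRNA entries held 428, 599 and 266 tags in HPC0h, 227, 470 and 0 in tGCI26h and 377, 113 and 27 in Sham. Among the 4 sums, that of histidine was the one in which neither HPC0h nor tGCI26h overlapped with Sham. This difference between the sets was not tested, and it was not seen entry by entry. Both groups lay above Sham in 5 of 29 glycine entries with a mean of at least 1, against 3 of 31 histidine entries. Only 8 histidine members were above 0 in tGCI26h u, which limits that count. Its share over all entries was not computed. Whatever the tGCI26h values, HPC0h lay above Sham in 16 of 21 glutamine, 10 of 29 glutamate and 5 of 29 glycine entries, against 23 of 31 histidine entries. Of all entries tested 13.0% did so. Sham u was blank for 56 of the 57 histidine members, which limits their count. Entries of a family can overlap in sequence, so these counts need not describe separate pieces.

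**Figure D4:**
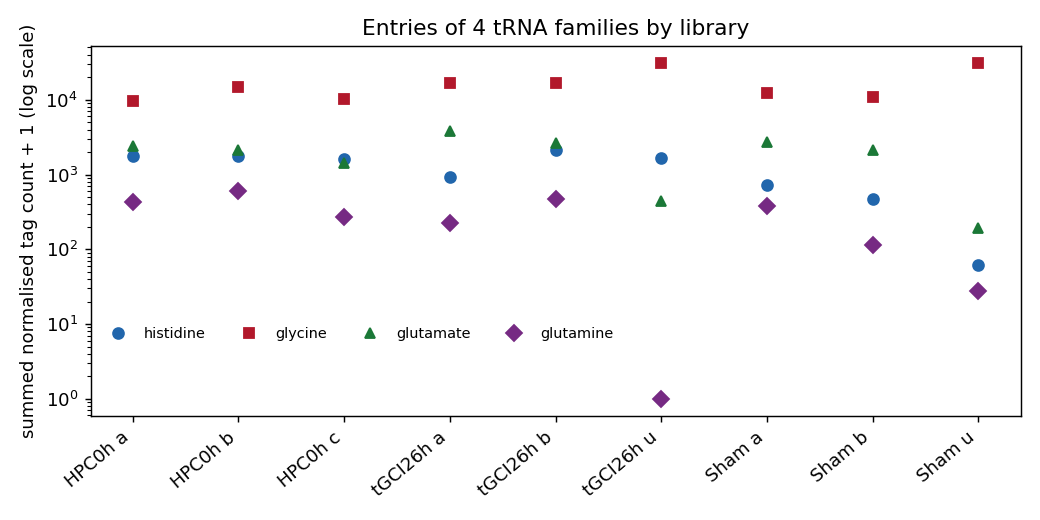
The summed normalised tag count plus 1 (y axis, log scale) of 4 tRNA families is shown for each library (x axis). The histidine points run from 1635 to 1773 tags in HPC0h, 935 to 2143 in tGCI26h and 61 to 733 in Sham, while glycine is at least 9484 in every library.

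By likeness to the family sum, the Pearson correlation of log2(value + 1) over the 9 libraries among 1322 other entries with a mean of at least 10, the nearest were novel_3252_x1685 (0.945), novel_4693_x1000 (0.945), novel_712_x16631 (0.944), novel_11018_x303 (0.943) and novel_12954_x243 (0.943). Of these, novel_4693_x1000, novel_11018_x303 and novel_12954_x243 are among the glycine tRNA entries and overlap each other in sequence; novel_4693_x1000 held 38, 47 and 30 tags in HPC0h, 36, 40 and 42 in tGCI26h and 27, 26 and 13 in Sham, with neither group overlapping with Sham. novel_3252_x1685 held 75, 69 and 119 tags in HPC0h, 65, 78 and 107 in tGCI26h and 37, 52 and 0 in Sham. Over the 7 numbered libraries they were novel_1981_x3495 (0.980), novel_11534_x285 (0.976), novel_14131_x216 (0.950), novel_14033_x218 (0.944) and novel_5569_x782 (0.935), none of which was among the 5 nearest over 9 libraries. The longest run that novel_5569_x782 shared with a lead entry was 11 bases, with glutamate, so it lay outside that set. The correlations describe a few libraries with a common scaling.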

How the data were processed

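Total RNA was extracted with Trizol, ligated to adaptors at both ends, copied, amplified, selected for inserts near piRNA length and read on an Illumina HiSeq, per the labels' protocols. Per the submitters' processing notes, cutadapt 1.9.3 and Novoalign 3.02.12 were used, with no role given; build, catalogue and counting rule are not given in the sources used here. Each deposited value is treated as a score, since the authors normalised the tag counts, per the file headers, and rounded them. A further 11 lines are not reported here.

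Groups were read from how each column heading starts (P0, R26 or Re26, and S); P0 was taken as HPC0h from its hour. Blanks were read as 0. limma 3.58.1 (R 4.3.3) with a trend was fitted to log2(value + 1) of entries whose 9-library mean reached 1, all groups together, with Benjamini-Hochberg adjustment over the whole table at 0.05; log2 differences understate changes of low values. The fit was tested on simulated data that gave every library the same spread and did not imitate the unnumbered libraries. It thus does not show the power of the 9-library fit. p-values measure the spread between libraries, which may be technical. The tRNA stretch was rebuilt from entries found with a search key of 9 bases. Such keys found few entries of the other tRNA families, so these were matched to lead entries instead, after the data were seen. Named are the 12 members with the highest mean, the longest and shortest, the leading member of each end position with at least 5% of the family, those at an unadjusted p below 0.05 and the 5 most alike entries; novel_806_x13899, novel_4183_x1164 and novel_2488_x2468 were named after their values were seen. Alternatives were other pseudocounts, filters, scalings and fits, other run lengths, the numbered libraries alone and each library left out. The members and lists were chosen with earlier results of these data known. Sequences of 10 marker microRNAs came from RefSeq (GRCr8).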

Additional observations from a re-analysis of the deposited data

How the results depend on the processing

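No paired analysis was possible because the columns carry no replicate numbers. The depth is unknown, which limits what a 0 or a blank can show. Over the 16 members named by the rule, 3 named outside it and all alternatives run, the log2 difference kept its sign in 408 of 422 values in tGCI26h against Sham, 421 of 423 in HPC0h against Sham and 383 of 423 in HPC0h against tGCI26h, and none passed the threshold. The cause of the 56 reversals was not tested. In HPC0h against Sham both were of novel_4183_x1164, which gave -0.062 with median-of-ratios and -0.13 with quantile normalisation of the numbered libraries.

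In tGCI26h against Sham, reversals came with 1 library left out. The values without tGCI26h b and without Sham u were -0.26 and -0.41 for novel_3084_x1815, -0.33 and -0.54 for novel_11278_x294, -0.21 and -0.33 for novel_6113_x686, -0.088 and -0.017 for novel_12902_x244 and -0.38 and -0.93 for novel_2026_x3377 and -0.18 and -0.53 for novel_2488_x2468; without tGCI26h a these last 2 gave -0.27 and -0.12. Over all libraries left out in turn the 6 members reached 3.91, 3.55, 3.60, 2.99, 2.32 and 1.67.

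In HPC0h against tGCI26h, novel_3850_x1319 gave 0.47 with median-of-ratios scaling, 0.16 with quantile normalisation and 0.17 in the numbered libraries, there also 0.17 with a mean of 10 or more, 0.12 with median-of-ratios and 0.23 with quantile normalisation. In the same order novel_13761_x224 gave 0.41, 0.37, 0.50, 0.50, 0.46 and 0.62. novel_551_x24104 gave 0.38 and 0.19 with the 2 scalings and 0.089 with quantile normalisation of the numbered libraries, and novel_2026_x3377 gave -0.037 with median-of-ratios there. In the numbered libraries, alone and with median-of-ratios and quantile normalisation, novel_13122_x239 gave 0.54, 0.50 and 0.48, novel_3146_x1767 gave 0.53, 0.49 and 0.50 and novel_1238_x7280 gave 0.29, 0.25 and 0.31, beside 0.29 with a mean of 10 or more and 0.026 with median-of-ratios over 9 libraries. With 1 library left out, the range was -0.84 to 0.17 for novel_3850_x1319, -0.80 to 0.50 for novel_13761_x224, -1.97 to 0.54 for novel_13122_x239, -1.99 to 0.53 for novel_3146_x1767 and -1.29 to 0.29 for novel_1238_x7280, with the upper end in each case without tGCI26h u. novel_806_x13899 gave -0.061 in the numbered libraries or with blanks missing, -0.096 with median-of-ratios and -0.031 with quantile normalisation of the numbered libraries, and -0.061 to 1.34 with 1 library left out. novel_4183_x1164 ranged from -0.74 to 0.39 with 1 library left out.

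Entries called in the whole table, 0 in each comparison, became 22 (tGCI26h against Sham), 36 (HPC0h against Sham) and 12 (HPC0h against tGCI26h) in the numbered libraries, and 3, 3 and 1 with blanks as missing values. Chosen after the data were seen, the numbered libraries gave 9, 7 and 1 with a mean of 10 or more, 11, 21 and 0 with median-of-ratios, and 8, 25 and 1 with quantile normalisation. No histidine entry was called in any of these. In HPC0h against Sham their smallest adjusted p in limma came near the threshold in the settings chosen after the data were seen. It was 0.0526 with a mean of 10 or more, 0.0967 with median-of-ratios and 0.0619 with quantile normalisation. Histidine entries at an unadjusted p below 0.05 in tGCI26h against Sham, 3 in all libraries, became 0 with a pseudocount of 5, a mean of 10 or more, or only the 2 groups compared, 11 in the numbered libraries (there 9, 7 and 7), and 8 with blanks missing, and ranged from 0 to 7 with 1 library left out. The share of all entries below 0.05, in either direction, moved too. It was 1.38% in all libraries, 12.6% in the numbered ones (there 12.7%, 11.2% and 9.45%) and 7.10% with blanks missing. With a mean of 10 or more, 15 members were tested in all libraries and 14 in the numbered ones. In HPC0h against Sham, 3 became 11 with a pseudocount of 5, 6 without a filter, 5 with median-of-ratios, 5 with the robust fit, 14 with only the 2 groups, 21 in the numbered libraries (there 13, 19 and 21) and 17 with blanks missing, and ranged from 0 to 16 with 1 library left out. Over all entries the share was 0.744% in all libraries, 1.20% with a pseudocount of 5, 2.13% without a filter and 1.20% with median-of-ratios. It was 0.779% with the robust fit and 3.58% with only the 2 groups. The numbered libraries gave 13.4% (there 11.8%, 10.5% and 9.3%), and blanks missing gave 7.5%. In HPC0h against tGCI26h, 0 became 1 in the numbered libraries (1 with either scaling) and 0 to 2 with 1 library left out. Over all entries the share was 7.02% in the numbered libraries and 6.42% without tGCI26h b. The HPC0h mean sum of 1722 tags became 2213 with median-of-ratios, 2188 with quantile normalisation and 1513 over entries that start at the added base or position 1, which moved its share ending at 32 to 48.0%. The median log2 difference over all entries was 0.14 in tGCI26h against Sham, 0.53 in HPC0h against Sham and 0.72 in HPC0h against tGCI26h, and moved by over 0.1 under many settings: to -0.04, 0.39 and 0.66 with quantile normalisation, 0.07, 0.23 and 0.26 with a pseudocount of 5, 0.11, 0.33 and 0.53 without a filter, 0.30, 0.14 and 0.95 with a mean of 10 or more, and 0.29, 0.09 and -0.09 with blanks missing. With 1 library left out it ranged from -0.46 to 0.57, 0.20 to 0.74 and 0 to 1.08.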
